A study of Mus musculus with 6 samples.

Results

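The lens arises from the placode, a thickening of the surface ectoderm over the optic vesicle, which folds inward to form it. Pax6, a transcription factor with a paired domain and a homeodomain, is known to be needed for its formation. Maf, Prox1 and Sox2 are transcription factors known for activating crystallin genes or driving lens fibre differentiation as the placode becomes a vesicle. The values below describe which genes the wild-type placode expressed, at what array intensity, and how far 3 embryos differed.

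The samples were 3 of the 6 arrays of the series, all from wild-type mouse embryos at E10.25 (E, embryonic day) on a mixed FVB and 129 background. The other 3 arrays carry Pax6-/- tissue and are not compared here. Placodes were cut with a laser from eosin-stained frozen sections of 10 microns. Each array held cDNA amplified from 15 ng of total RNA from both prospective lenses of a single embryo, so the 3 arrays stand for 3 embryos. All lay on 1 slide. The labels do not give the sex of the embryos.

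A probe was a member if its detection p, which sets its brightness against the array's negative controls, was under 0.05 on all 3 arrays. This held for 12877 of 46632 probes (27.6%). The brightest such probe stood for each gene, which gave 7298 of the 17711 named genes on the array (41.2%). A further 3279 member probes carried no gene name. Levels are background-corrected, quantile-normalised log2 intensities, given in the order of arrays 1, 2 and 3, with the mean ± SD over the 3 arrays. A probe's brightness also depends on its sequence and on amplification of the transcript, so ranks across genes order probe intensity and not molecules per cell. In such bulk tissue, fewer cells of a type and less RNA per cell cannot be told apart.

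The 3 arrays were of similar depth. Raw median intensities were 64.3, 63.6 and 55.2, and 40.2%, 37.4% and 36.2% of the probes were above background. Over the 12877 member probes, Pearson's correlation was 0.826 between arrays 1 and 2, 0.845 between arrays 1 and 3 and 0.804 between arrays 2 and 3. These are correlations across probes on shared quantiles, given as a description. The named genes had mean levels between 5.19 and 13.18, with a median of 7.74. Just inside the detection limit stood Atg2a, with levels of 5.74, 5.19 and 5.61 and a highest detection p of 0.0499. Just outside it stood the macrophage gene Aif1, with levels of 9.05, 5.19 and 6.86 and a highest detection p of 0.0505, so a gene can be bright on 1 embryo and still not be a member.

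Levels are given first for 6 genes known to mark the placode and early lens, and all 6 were above background on every array. They were chosen with earlier results of these data known, so their presence is no check of the tissue label. Sfrp2, which encodes a secreted Wnt-binding protein, was the brightest of them, with levels of 12.76, 12.59 and 12.59 (12.64 ± 0.10, SD, n = 3). It ranked 7 among the 7298 genes. Mab21l1, a nucleotidyltransferase-fold protein gene needed for lens formation in mice, read 10.98, 10.75 and 11.12 (10.95 ± 0.19). The bZIP factor Maf read 10.88, 10.86 and 10.66 (10.80 ± 0.12), and the homeobox factor Prox1 read 11.09, 10.23 and 11.06 (10.79 ± 0.49). Pax6 itself read 10.64, 10.31 and 10.83 (10.59 ± 0.27), which ranked 441. The SoxB1 factor Sox2 was the dimmest of the 6, at 9.70, 9.37 and 9.59 (9.55 ± 0.17). On these probes the SD between embryos was at most 0.49. Array 2 was the lowest for Pax6, Prox1, Mab21l1 and Sox2 and shared the lowest value with array 3 for Sfrp2. For Maf, array 3 was the lowest. Levels of a gene still depended on the probe. The other Pax6 probes averaged 10.37 ± 0.19 and 9.67 ± 0.086, close to the first. The second Mab21l1 probe averaged 8.84 ± 0.061, and the second Sox2 probe read 7.54, 5.77 and 5.67 (SD 1.06).

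**Figure D1:**
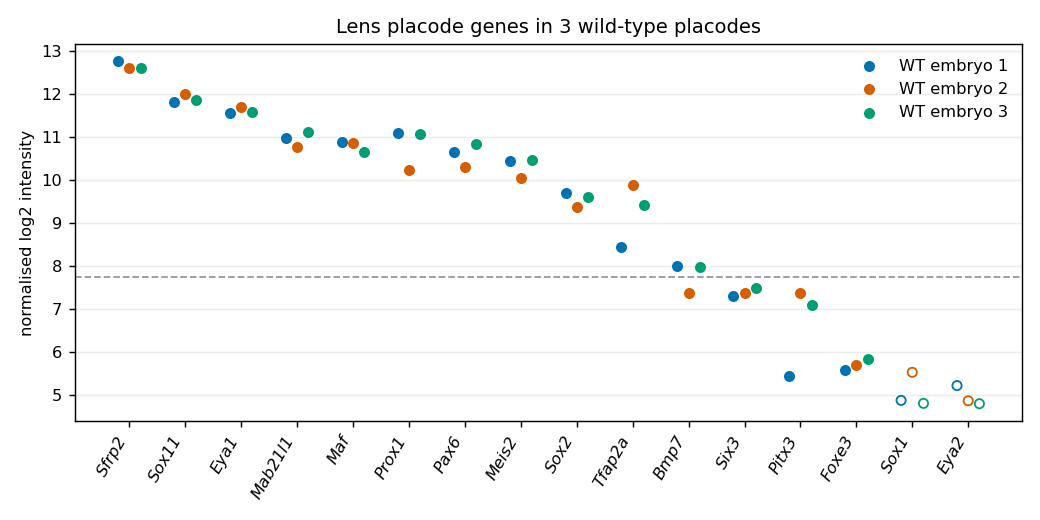
Normalised log2 intensity (vertical axis) of the lens placode list (horizontal axis) on each of 3 wild-type arrays, 1 point per array; hollow points mark genes not above background on all 3 arrays, and the dashed line marks 7.74, the median of the gene means. Sfrp2, Sox11 and Eya1 lie at the top with tightly grouped points, while Foxe3 lies near background on every array.

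Of the 16 genes listed as regulators or markers of the lens placode, 14 (87.5%) were members, beside 41.2% of all named genes. The list was made with earlier results of these data known. Sox11, a SoxC factor, read 11.81, 12.00 and 11.84 and ranked 57. Eya1, a phosphatase and cofactor of sine oculis-type homeobox proteins, read 11.55, 11.68 and 11.58 and ranked 91. The TALE homeobox gene Meis2, whose product is known to bind a lens enhancer of Pax6, read 10.44, 10.04 and 10.45. These 3 were bright in every embryo. Other regulators of the early lens were dim. Six3, a homeobox factor upstream of Pax6 in the lens ectoderm, read 7.31, 7.37 and 7.48. Bmp7, a signal known to be needed for placode formation, read 8.0, 7.37 and 7.97. The homeobox gene Pitx3 read 5.44, 7.36 and 7.09, with array 1 near background, and the forkhead gene Foxe3, known from the lens vesicle, read 5.58, 5.70 and 5.84. Sox1 and Eya2 were above background on 1 array each.

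Surface ectoderm genes were present beside the lens regulators. Of 17 listed genes of surface ectoderm and epidermis, 12 (70.6%) were members, beside 41.2% of all named genes. The AP-2 factors Tfap2c (10.02, 10.27 and 10.67) and Tfap2b (9.66, 9.83 and 10.16) were among the brightest of the list, with Krt18, a keratin of simple epithelia (9.78, 9.83 and 10.26). Epcam and Cdh1, which encode epithelial adhesion proteins, read 9.96, 9.98 and 9.73 and 9.80, 9.83 and 10.04. These 5 were the brightest of the list, and none had a range (highest minus lowest array) over 1 on the log2 scale. In 6 of the 12 members the range was over 1, beside 45.1% of all 7298 genes. Among them were Tfap2a (8.44, 9.87 and 9.40), the splicing factor gene Esrp1 (SD 0.82) and the epithelial factor gene Grhl2 (8.37, 8.25 and 6.57). For Tfap2a this rests on the probe: the next brightest, with a mean of 9.23 against 9.24, read 9.18, 9.25 and 9.27. The dimmer Tfap2a probes each had a range over 1, but with array 2 the lowest. Krt5, a basal keratin, read 8.66, 6.82 and 5.35 (SD 1.66), and Trp63, the p63 factor of stratified epithelia, read 6.03, 7.91 and 6.36. Krt14, Krt15 and Grhl3 were above background on none of the arrays.

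Lens differentiation products were partly present. Of 16 crystallin genes on the array, 5 (31.3%) were members, 2 were above background on 2 arrays, 5 on 1 array and 4 on none. The share of members among all named genes was 41.2%. The beta-crystallin gene Crybb3 was the brightest, at 9.31, 10.18 and 9.47 (9.65 ± 0.46). Cryge, a gamma-crystallin, read 8.80, 8.37 and 9.99, and Cryab, a small heat shock protein of the lens and other tissues, read 9.73, 7.78 and 9.36. Crygn (5.85, 7.5 and 8.56) and Crygc (6.26, 7.57 and 7.19) were lowest on array 1. In 4 of the 5 member crystallins the embryos differed by over 1 on the log2 scale, beside 45.1% of all 7298 genes, and 5 genes are too few to set this share apart. Gamma-crystallin genes are closely similar in sequence, and their probes may share signal, so which of them was measured is uncertain. Cryaa, the alpha-crystallin known as an abundant lens protein, was near background at 5.39, 4.96 and 5.39 and passed on 2 arrays. Cryba1 read 8.40, 9.63 and 4.79, bright on arrays 1 and 2 and not above background on array 3.

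Among 11 genes of lens fibre proteins, 5 (45.5%) were members, near the 41.2% of all named genes. Gja1, which encodes the gap junction protein connexin 43 of lens epithelium and many other tissues, read 12.32, 12.47 and 12.23 and ranked 19. Mip, the water channel of fibre cells, read 8.02, 10.08 and 9.53, lowest on array 1. Tdrd7, an RNA granule protein gene whose loss gives cataract, read 8.40, 8.90 and 7.63. Lim2, Gja3, Hsf4, Lgsn, Birc7 and Dnase2b, most of them known from differentiated fibres, were above background on none of the arrays.

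Promoter sequence was examined as a feature the detection rule did not use. For 11751 named genes the RefSeq table for GRCm38.p6 held 1 promoter, taken as the 250 bases before and 50 bases after the start site. The 4807 genes above background on all 3 arrays had a median of 22 CG dinucleotides and 61.3% G and C, against 5 CG dinucleotides and 51.0% for the 4701 genes above background on none. Genes were also searched for TATAAA or TATATA lying wholly between 40 and 16 bases before the start site, on the gene's strand, a promoter with overlapping matches counting once. Such a match was found in 106 promoters (2.21%) of the genes above background on all 3 arrays, in 307 (6.53%) of those on none and in 466 (3.97%) of all. Among the 500 brightest genes the share was higher than 2.21%, at 4.14% of 338 promoters. Promoters of the ribosomal protein and crystallin lists were not limited to genes above background. A match was found in 8.33% of 36 ribosomal protein promoters, which had a median of 22 CG dinucleotides, and in 10 of 15 crystallin promoters. Of the listed genes on the array, 47 of 56 ribosomal protein genes and 5 of 16 crystallin genes were members. No test was made, and a match is a run of letters and not a known site. The sequences below are shown for a bright marker, a dimmer marker, a steady ribosomal protein gene and 3 crystallin genes. Each is the 100 bases before the start site from RefSeq, 5′ to 3′ on the gene's strand, with CG dinucleotides and a matched motif in capitals. They lie at chr3:83766221-83766320 (plus strand) for Sfrp2, chr3:34649895-34649994 (plus) for Sox2, chr10:128549169-128549268 (minus) for Rpl41, chr5:113081585-113081684 (minus) for Crybb3, chr1:65073533-65073632 (minus) for Crygc and chr5:24757849-24757948 (minus) for Crygn.
Sfrp2: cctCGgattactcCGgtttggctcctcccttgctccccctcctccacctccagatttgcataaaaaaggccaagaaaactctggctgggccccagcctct
Sox2: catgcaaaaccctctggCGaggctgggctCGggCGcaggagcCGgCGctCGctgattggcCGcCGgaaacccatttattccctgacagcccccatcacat
Rpl41: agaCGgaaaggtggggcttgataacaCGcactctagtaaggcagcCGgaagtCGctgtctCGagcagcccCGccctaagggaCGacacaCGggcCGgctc
Crybb3: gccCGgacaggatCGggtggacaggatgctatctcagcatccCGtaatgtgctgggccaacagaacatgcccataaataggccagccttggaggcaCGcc
Crygc: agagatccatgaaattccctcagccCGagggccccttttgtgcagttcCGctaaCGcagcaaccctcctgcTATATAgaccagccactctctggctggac
Crygn: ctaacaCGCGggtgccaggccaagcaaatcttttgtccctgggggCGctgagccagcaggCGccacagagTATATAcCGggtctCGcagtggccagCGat
The stretch holds 9 CG dinucleotides in Rpl41 and 8 in Sox2, but 2 in Sfrp2, the brightest of the 6 markers. Crygc and Crygn carry TATATA 29 and 30 bases before the start site.

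The 30 brightest genes of the placode included genes of the cytoskeleton, chromatin, translation and cell division. Actb, cytoplasmic beta-actin, was the brightest named gene, at 13.28, 12.88 and 13.38 (13.18 ± 0.26). Snx10, a sorting nexin gene, averaged 13.10 ± 0.15 with array 2 the highest at 13.28, and Hmgn1, a nucleosome-binding protein gene, read 13.10, 12.83 and 12.88. The second Snx10 probe averaged 6.10 and passed on 2 arrays, and the second Hmgn1 probe averaged 6.28. The ranks of Snx10 and Hmgn1 thus rest on 1 probe each, while the second Actb probe averaged 12.71. Dpysl2, a tubulin-binding protein gene known from neurons, read 12.60, 13.02 and 13.02, and its second probe averaged 12.09. Alpha-tubulin Tuba1a (12.75 ± 0.14) and beta-tubulins Tubb5 (12.57 ± 0.15) and Tubb2b (12.50 ± 0.09) followed, with the caution that tubulin genes are near-identical in places. The histone demethylase gene Kdm7a (12.68 ± 0.09) and Mgarp, a mitochondrial protein gene (12.64 ± 0.09), were as bright as Sfrp2 within their spread. The next brightest probe averaged 7.79 for Kdm7a, and 5.32 for Tubb2b, where it passed on 1 array. Of the 50 brightest probes of any kind, 16 had no gene name, and 5 of these were brighter than Actb.

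Genes of growth and division were well represented. Of 33 cell cycle and replication genes, 27 (81.8%) were members, beside 41.2% of all named genes, with a median mean level of 9.59. Ccnd1, which encodes cyclin D1 of the G1 phase, read 12.40, 12.51 and 12.44 and ranked 14. The replicative helicase gene Mcm4 read 12.01, 11.71 and 11.76, and the mitotic kinase gene Plk1 read 11.79, 11.63 and 11.67. The inhibitor gene Cdkn1c (p57), known for cell cycle exit in lens fibres, read 10.60, 10.48 and 10.56. Cdkn1a (p21) was above background on none of the arrays. Of 56 cytosolic ribosomal protein genes, 47 were members, with a median of 10.71. Of 77 nuclear genes of the respiratory chain, 68 were members, with a median of 9.12, and of 14 glycolysis genes 12, with a median of 10.51. The 10 smallest spreads above the median level were those of Rpl41, Srsf5, Atp5l, Khnyn, Ptp4a2, Prkd3, Pdia4, Slc44a1, Slbp and Doc2a. Rpl41 read 12.34, 12.37 and 12.34, the splicing factor gene Srsf5 12.29, 12.28 and 12.26, and the ATP synthase gene Atp5l 11.76, 11.74 and 11.75. Khnyn had the smallest of all (8.43, 8.44 and 8.42, SD 0.0071).

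**Figure D2:**
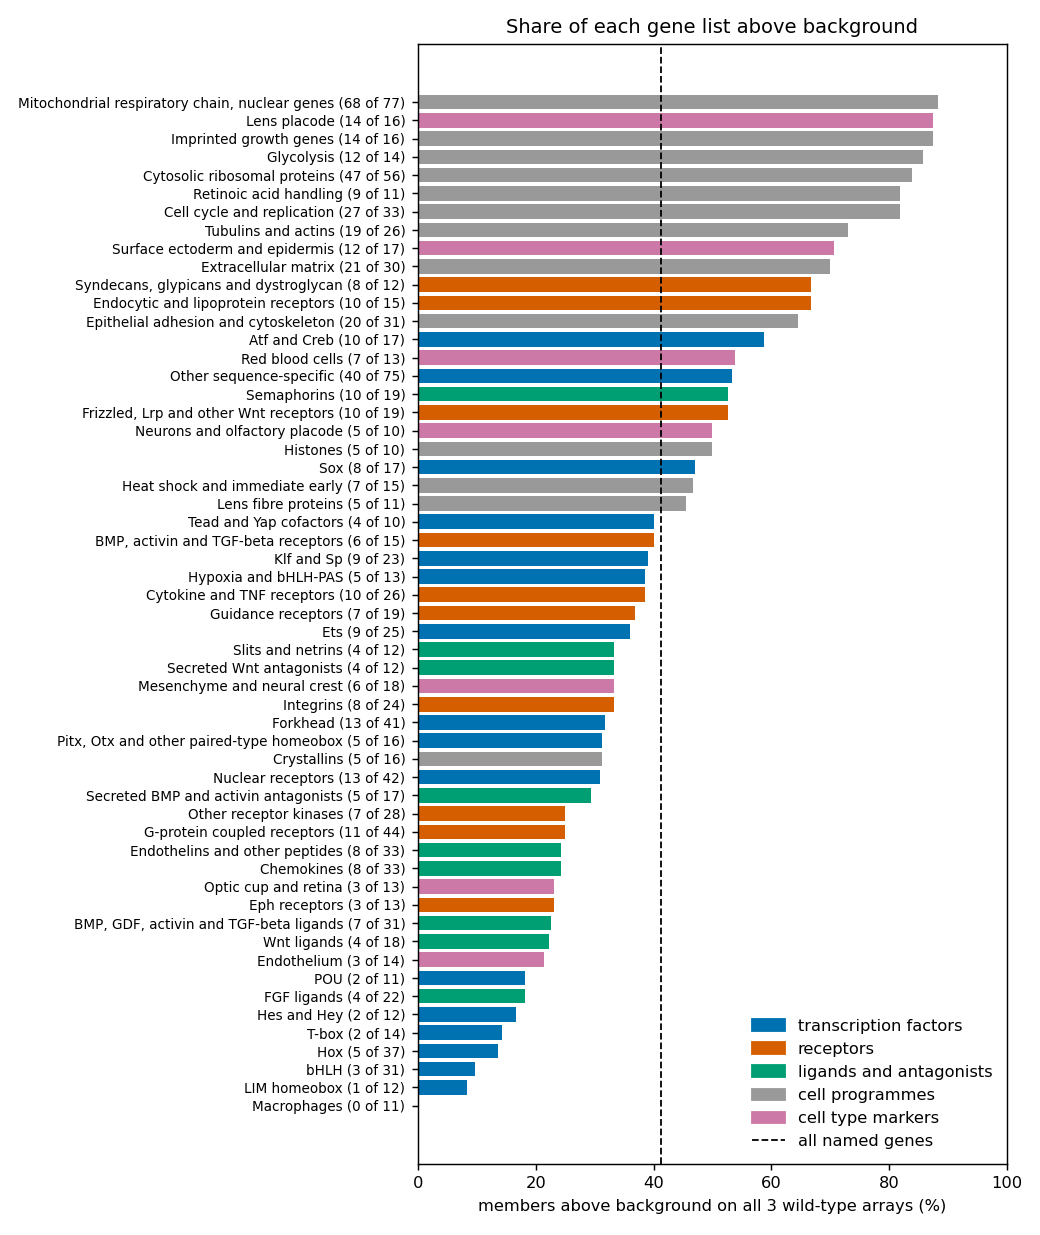
Share of members above background on all 3 wild-type arrays (horizontal axis, percent) for each list with 10 or more genes on the array, 1 bar per list, coloured by class; the dashed line marks 41.2%, the share of all named genes. Respiratory chain, lens placode and imprinted gene lists lie near the top, while bHLH factors and macrophage markers lie near 0.

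Transcription factors and cofactors ran from very bright to undetected. Of 568 on the array, 205 (36.1%) were members, against 41.2% of all named genes, and their median mean level was 7.97 beside 7.74 for all members. Of the 205, 20 were among the 500 brightest genes. Hmgb1, an abundant chromatin protein, led at 12.34, 12.13 and 12.55, followed by Ctnnb1, the beta-catenin gene of adherens junctions and Wnt signalling (12.55, 12.22 and 11.87). After Sox11 and Eya1, described above, came broadly expressed regulators such as Adnp (11.92, 11.20 and 12.00) and Gtf2i (11.83, 11.42 and 11.82). The orphan nuclear receptor gene Nr2f1 (COUP-TFI), known from eye development, read 11.24, 11.36 and 11.38 and ranked 153. Srf, which encodes the serum response factor of actin gene control, read 11.25, 10.97 and 11.42.

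Families differed in how many of their genes were present, and 41.2% of all named genes on the array were members. Pax6 was the 1 member of 8 Pax genes, with 6 of the others above background on none of the arrays. All 4 sine oculis-type homeobox genes on the array (Six3, Six4, Six5 and Six6) were members, but dim, with means of 7.39 for Six3, 6.80 for Six6, 6.73 for Six5 and 6.23 for Six4, and 1 was a member at a detection p under 0.01. Of 17 Sox genes, 8 were members, among them Sox12 (10.88, 11.10 and 11.45) and Sox9 (8.99, 10.55 and 11.03), which was about 2 log2 units dimmer on array 1 than on array 3. Of the 41 forkhead genes 13 were members, led by Foxk1 (10.32, 10.72 and 9.57) and the cell cycle factor Foxm1 (10.03, 9.78 and 10.46). Pbx2, a partner of Meis factors, read 11.46, 11.53 and 9.83. Dlx3, a homeobox gene of surface ectoderm and placodes, read 9.06, 10.04 and 10.51. Hox genes, which pattern the trunk, had 5 members of 37, and the brightest was Hoxb4 at 6.40, 6.70 and 7.25. Of the 31 bHLH genes 3 were members, all of them E proteins (Tcf12, Tcf3 and Tcf4), which pair with tissue-specific bHLH factors. No Irx, Gata or AP-1 gene passed on all 3 arrays. Of the AP-1 genes, which respond within minutes to stress, 2 passed on 2 arrays and 4 on 1 array.

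Receptors and ligands are described together by pathway. Of 240 receptor genes, 94 (39.2%) were members, beside 41.2% of all named genes, with a median mean level of 7.65. Of 250 ligand and antagonist genes, 73 (29.2%) were members with a median of 7.18. Of these, 7 receptors and 4 ligands were among the 500 brightest genes.

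**Figure D3:**
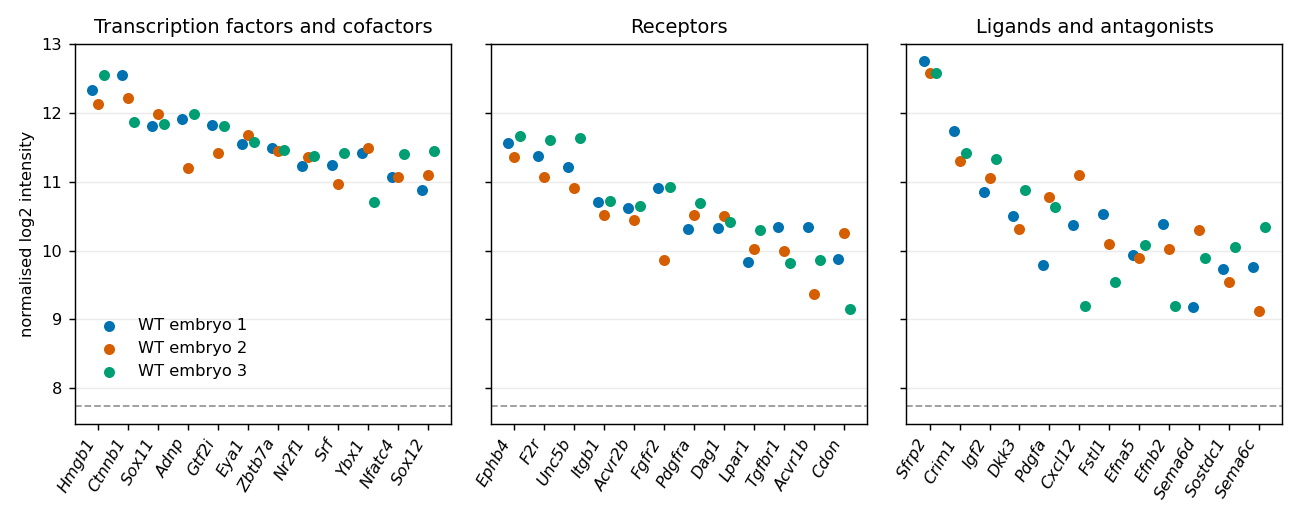
Normalised log2 intensity (vertical axis) of the 12 brightest transcription factors and cofactors, receptors, and ligands or antagonists (horizontal axes, 1 panel each) on each of 3 wild-type arrays, 1 point per array; the dashed line marks 7.74. Sfrp2 stands about 1 log2 unit above the next ligand, Crim1.

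FGF signalling is known to act in induction and growth of the lens, and 2 of the 7 genes of FGF receptors and co-receptors were members. Fgfr2 read 10.92, 9.87 and 10.92 (10.57 ± 0.61), lowest on array 2. Its 3 other member probes, at 7.28, 9.77 and 7.84, at 7.01, 7.29 and 7.03 and at 6.70, 6.79 and 5.94, were dimmer, and array 2 was the highest on each of them, so the order of the embryos depends on the probe. Fgfr1 read 7.89, 9.29 and 7.66, while Fgfr3 and Fgfr4 were above background on none. Of 22 FGF ligands, 4 were members and all were dim, led by Fgf15 (6.26, 7.62 and 7.45), and 1 was at a detection p under 0.01. Etv5 and Etv1, Ets factors known as FGF targets, read 10.29, 10.62 and 9.53 and 9.65, 9.0 and 9.13.

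Of 15 receptor genes for BMPs, activins and TGF-beta, 6 were members. Acvr2b, a type II receptor, read 10.63, 10.44 and 10.65. Tgfbr1 read 10.34, 9.99 and 9.82, and Bmpr1a, a type I BMP receptor known to act in lens formation, read 9.49, 9.44 and 8.69. Of 31 ligands of the BMP, GDF, activin and TGF-beta families, 7 were members, Bmp7 being the brightest, and 2 at a detection p under 0.01. Bmp4 passed on 2 arrays. Crim1, a transmembrane protein that binds BMPs, was the second brightest of the ligand class, at 11.75, 11.30 and 11.42, and Sostdc1, a secreted BMP and Wnt antagonist, read 9.74, 9.54 and 10.05. All 4 Id genes, which are known BMP targets, were members: Id2 read 10.22, 10.31 and 9.17, and Id1 read 7.41, 9.23 and 7.64.

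The Wnt pathway was represented by receptors, ligands and secreted antagonists. Of 19 Frizzled, Lrp and other Wnt receptor genes 10 were members, led by Fzd10 (9.76, 9.57 and 8.69). Of 18 Wnt genes 4 were members, or 1 at a detection p under 0.01, and Wnt5a, a ligand of non-canonical signalling, was the brightest at 8.33, 9.36 and 8.61. Wnt2b read 5.28, 8.50 and 6.04 and was highest on array 2. Among 12 secreted antagonists, Sfrp2, Dkk3 (10.50, 10.32 and 10.88), Sfrp1 (8.87, 9.82 and 9.09) and Sfrp5 were members. The 3 hedgehog ligands were above background on none of the arrays, while 4 of 6 hedgehog receptor genes were members, led by Cdon (9.88, 10.26 and 9.16) and Ptch1 (9.04, 9.30 and 8.38). Of the Notch genes, Notch4, Notch2 and Notch3 were members, each with a range over 1, and 1 of them at a detection p under 0.01. Jag1, a Notch ligand known in the lens, read 9.36, 9.21 and 8.80.

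Other receptors were bright. Ephb4, a receptor for ephrin-B2, was the brightest of the class, at 11.57, 11.36 and 11.67, and its ligand gene Efnb2 read 10.40, 10.02 and 9.19. F2r, the thrombin receptor, read 11.37, 11.08 and 11.61, and Unc5b, a netrin receptor, read 11.22, 10.91 and 11.64. All 3 were lowest on array 2. The second Ephb4 probe averaged 6.72, and the second Unc5b probe was above background on none of the arrays, so both ranks rest on 1 probe. Itgb1, the common beta chain of matrix receptors, read 10.71, 10.52 and 10.73. Pdgfra read 10.31, 10.53 and 10.70, and the ligand gene Pdgfa 9.79, 10.79 and 10.64. A second Pdgfra probe was near background, and a second Itgb1 probe averaged 6.24. Igf2, an imprinted growth factor gene, read 10.86, 11.06 and 11.34.

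The list of matrix genes had 21 members of 30 (70.0%), beside 41.2% of all named genes. The basement membrane genes Agrn (10.79, 10.88 and 11.40) and Hspg2 (10.33, 10.98 and 10.65) were the brightest. Has2, which makes hyaluronan, read 9.99, 9.38 and 9.60, and Tnc, tenascin C, read 9.56, 10.31 and 9.05. Fn1, fibronectin, read 10.47, 10.49 and 8.09, lowest on array 3. Of its 3 other member probes, those at 9.46, 10.12 and 7.91 and at 8.66, 9.02 and 5.34 were also lowest there, and the probe at 8.93, 9.76 and 9.64 was not. Cdh2, N-cadherin, read 9.37, 8.54 and 7.95. Its other member probes read 8.13, 8.73 and 8.11, and 8.10, 5.70 and 7.62, so the order of the embryos depends on the probe. In 10 of the 21 matrix members the embryos differed by over 1 on the log2 scale, a share near the 45.1% of all genes.

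Retinoic acid is a signal known to shape the early eye. Of 11 genes that make, bind or break down retinoic acid, 9 (81.8%) were members, beside 41.2% of all named genes. The dehydrogenase gene Aldh1a3 read 10.32, 10.28 and 10.23, the steadiest of them, and a second probe matched it at 10.19, 10.13 and 10.22. Aldh1a1 read 10.03, 9.31 and 8.37, and Aldh1a2 was above background on none. Cyp26b1, which breaks retinoic acid down, read 8.97, 6.21 and 8.79, lowest on array 2. Of 16 imprinted growth genes, 14 (87.5%) were members, led by Grb10 (11.78, 12.04 and 11.27), an adaptor that dampens insulin and IGF signalling. Igf2r, the receptor that clears Igf2, read 6.16, 8.33 and 9.87.

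Differences between embryos were common. In 3291 of the 7298 genes (45.1%) the highest and lowest arrays differed by over 1 on the log2 scale, which is over 2-fold, and in 1034 genes (14.2%) by over 2. The median SD was 0.47, with quartiles of 0.25 and 0.82. On quantile-normalised log2 raw signal the median SD between arrays was 0.38, against a median standard error of the bead mean of 0.051. The bead error covers noise within an array and no other source. The difference between arrays holds the embryo, the dissection and the amplification together, and these 3 cannot be told apart, since each embryo had 1 array.

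**Figure D4:**
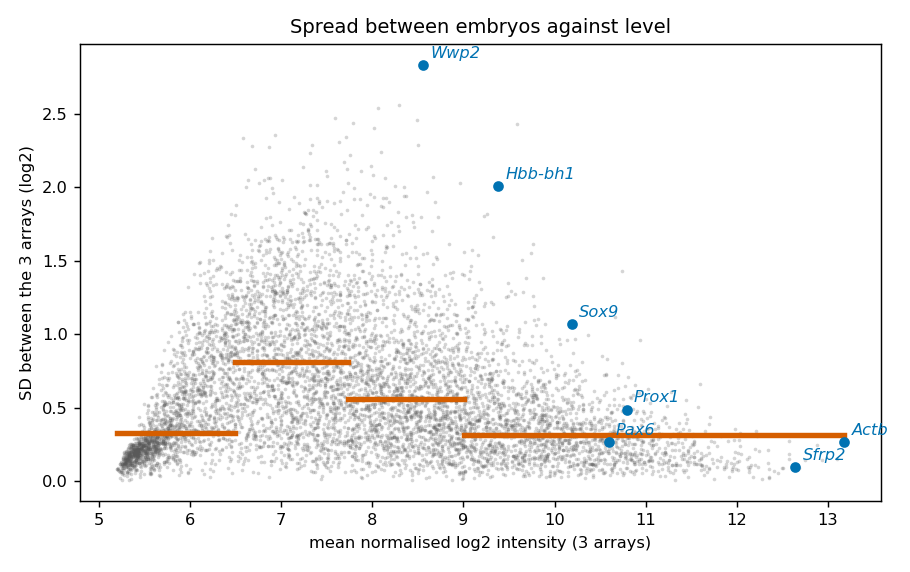
SD between the 3 wild-type arrays (vertical axis, log2) against mean normalised log2 intensity (horizontal axis) for 7298 genes, 1 point per gene; orange bars mark the median SD in each of 4 groups of equal size by level. The median SD is 0.33 in the dimmest group, 0.81 in the next, 0.56 in the third and 0.31 in the brightest.

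The spread depended on level. When the genes were split into 4 groups of equal size by mean level, the median SD was 0.33 between 5.19 and 6.49, 0.81 up to 7.74, 0.56 up to 9.01 and 0.31 above that. Differences over 1 occurred in 32.1%, 71.9%, 54.0% and 22.4% of the genes, from the dimmest group to the brightest. In the dimmest group array 1 was the lowest in 64.3% of the genes. The lowest level above background was also lower there, at 5.10 against 5.19 on array 2 and 5.24 on array 3. In that group 1771 of 1825 genes had a lowest value under 6, and levels so near the limit leave little room for spread. How far the detection limit set these values was not tested. The genes that differed by over 1 were not those of a single embryo. Array 1 stood apart from the other arrays in 898 of them (27.3%), array 2 in 1339 (40.7%) and array 3 in 1054 (32.0%).

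The 30 genes with the largest SD, from 2.06 to 2.83, were dim in some embryos and bright in others. Their lowest values lay between 5.12 and 6.79, and their highest between 9.02 and 11.26. Wwp2, a ubiquitin ligase gene, had the largest, at 9.75, 5.32 and 10.59. Foxk2, a forkhead gene, read 10.70, 6.79 and 11.26, and its second probe (7.63, 8.25 and 7.36) was not lowest on array 2. Med12l, a Mediator subunit gene, read 5.37, 10.15 and 9.35, and Rab23, a small GTPase gene that restrains hedgehog signalling, read 5.13, 9.65 and 9.39. Rnf43, a ubiquitin ligase gene that lowers Frizzled levels, read 5.17, 9.44 and 7.09. Fadd, an adaptor of death receptors, read 9.36, 5.51 and 9.42, and its second probe (6.95, 5.30 and 7.46) was lowest on the same array. The lowest array was array 1 for 14 of the 30, array 2 for 12 and array 3 for 4.

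Probes of the same gene often differed in level and in which embryo was high. Of 1697 genes with several member probes, the brightest and dimmest differed by a median of 1.47, and by over 1 in 1099 genes (64.8%). Eya1 was among the extremes, with probe means of 11.60, 8.50, 6.93 and 5.35, so its rank rests on 1 probe. Other bright genes also had a far dimmer second probe, among them Crim1 (mean 6.85), Plk1 (6.26), Mcm4 (5.94), Agrn (5.48) and Sox12 (5.09). The second probes of Srf (4.89) and Dkk3 (4.90) were above background on none of the arrays. Those of Ccnd1 (9.98), Gtf2i (9.56), Adnp (9.15) and Hspg2 (9.08) were brighter. In 450 genes both of the brightest probes differed by over 1 between embryos. The same array was the highest on both probes in 210 of them (46.7%) and the lowest in 201 (44.7%).

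Genes of other cell types were measured to see what the dissected tissue held beside placode. Of 13 red blood cell genes, 7 (53.8%) were members, against 41.2% of all named genes. In 6 of these 7 the range was over 1, beside 45.1% of all 7298 genes, and 7 genes are too few to set this share apart. The beta-globin gene Hbb-bs read 9.73, 10.75 and 10.82, the embryonic globin gene Hbb-bh1 10.84, 7.09 and 10.21 (SD 2.01), and the alpha-globin gene Hba-a1 9.97, 7.76 and 8.13. On the brightest probes no array was the highest for all globins. Hbb-bs was lowest on array 1, and Hbb-bh1 and Hba-a1 were highest there. Array 2 was the lowest for Hbb-bh1, Hba-a1, Hba-x (8.72, 5.40 and 6.66), Alas2 (5.96, 5.76 and 8.42) and Car2. Array 1 was the lowest for Hbb-bs and Hbb-bt, but the order of the embryos depends on the probe. Hbb-bs probes at 5.89, 7.47 and 7.66 and at 5.14, 7.18 and 6.16 were also lowest on array 1. The Hbb-bs probe at 7.17, 4.90 and 6.16 was highest there. Hbb-bt probes at 7.60, 5.02 and 4.85, at 7.73, 4.86 and 4.85 and at 6.28, 4.93 and 4.92 were above background on array 1 only. The Hbb-bt probe at 5.15, 5.26 and 5.89 was lowest there. Beta-globin genes are near-identical, so their probes may share signal. No macrophage gene of 11 was a member, with 3 above background on 2 arrays, 4 on 1 and 4 on none.

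Endothelial genes were 3 of 14 as members (Egfl7 at 8.13, 7.47 and 6.83, Kdr at 7.09, 7.23 and 7.26, and Emcn), and Cdh5 and Tie1 were above background on none. The counts of this list and of the lists that follow stand beside 41.2% of all named genes. Of 13 genes of the optic cup, which underlies the placode, 3 were members, namely Zic1 (6.24, 6.81 and 8.57), Mitf and Six6. The retinal genes Hes5, Fabp7 and Vax2 and the pigment genes Tyr and Dct were above background on none, and Rax on 1 array. The transcription factor genes Lhx2 (5.10, 6.14 and 5.39) and Otx2 (6.35, 4.76 and 6.22) and the pigment gene Pmel (6.53, 7.51 and 4.92) were above background on 2 arrays each. Of 18 mesenchyme and neural crest genes, 6 (33.3%) were members, which is not above the share of all named genes. Pdgfra was the brightest, followed by Col5a1 (9.25, 8.32 and 9.01), Zeb2 (7.77, 8.73 and 8.10) and Prrx1 (7.89, 7.97 and 8.39). The other Zeb2 member probes (8.13, 7.62 and 8.16, and 9.12, 5.37 and 9.11) were lowest on array 2, where the brightest was highest. The remaining members, Alx4 (6.20, 5.24 and 8.18) and Prrx2 (5.53, 6.04 and 6.77), had a range over 1 and were highest on array 3. Foxc2 (5.48, 4.81 and 8.22), Snai2 (7.15, 4.82 and 5.86), Twist1, Col3a1 and Zeb1 were above background on 2 arrays each, and 6 genes, among them Col1a1, Foxc1, Sox10, Snai1 and Twist2, on none. Of 10 neuronal or olfactory placode genes, 5 were members, with Dlx5 (8.32, 7.66 and 8.15) the brightest, and of 8 muscle genes 1. Neither the shares of these lists nor the part of these cells in the levels of other genes was tested.

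**Figure D5:**
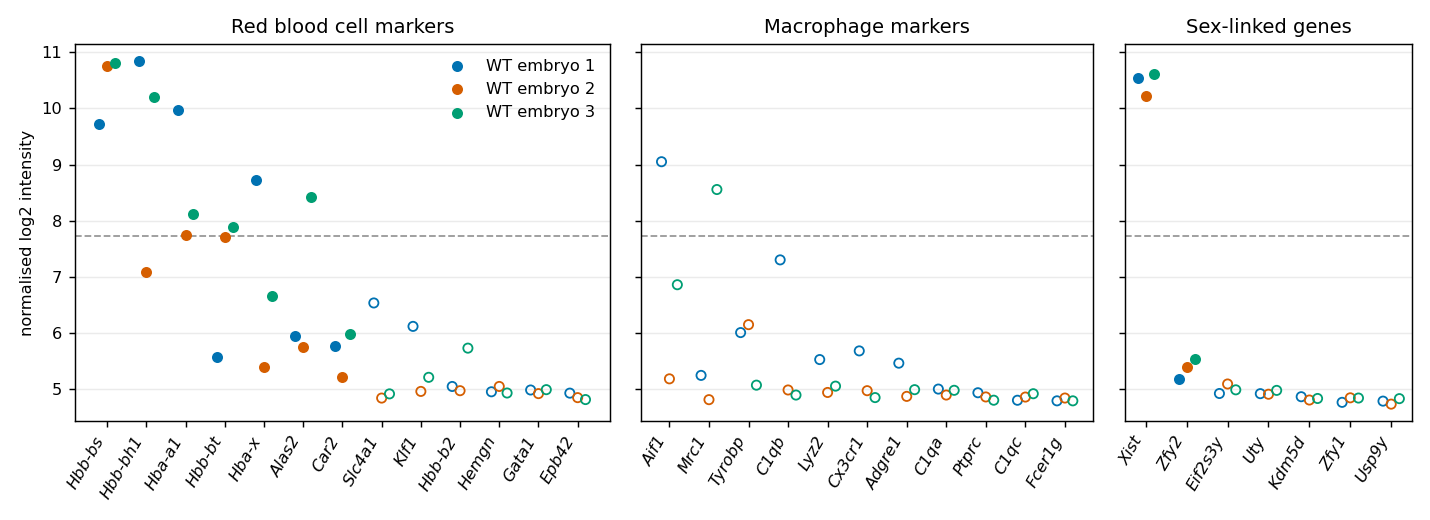
Normalised log2 intensity (vertical axis) of red blood cell, macrophage and sex-linked genes (horizontal axes, 1 panel each) on each of 3 wild-type arrays, 1 point per array; hollow points mark genes not above background on all 3 arrays, and the dashed line marks 7.74. Globin genes spread widely between embryos, macrophage genes lie mostly near background, and Xist is bright on all 3 arrays.

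Sex-linked genes read alike in the 3 embryos. Xist, the RNA that silences one X chromosome in female cells, read 10.54, 10.22 and 10.61 (10.46 ± 0.21) and ranked 513, or 1518 with the mean of its probes. The Y-linked genes Eif2s3y, Kdm5d, Usp9y, Uty and Zfy1 were above background on none of the arrays, and Zfy2 was near background at 5.19, 5.41 and 5.54. Of 13 genes on the Y chromosome 1 was a member (7.69%), against 256 of 635 on the X chromosome (40.3%).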

How the data were processed

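Per the labels' protocols, RNA was amplified with a Pico whole-transcriptome kit, biotin-labelled and hybridised to bead arrays. For every probe and array the authors deposited an unnormalised mean bead intensity, the standard error of that signal over beads, the count of beads (a median of 37, at least 7) and a detection p-value. GenomeStudio is the tool in the submitters' processing notes, with its version not given in the sources used here. A second deposited table holds processed intensity values made by the authors in a way not given in those sources, and served as an alternative.

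Of 46632 probes, 29976 had 1 gene symbol in the platform annotation, 10 several and 16646 none. By gene identifier, 29921 matched the RefSeq table for GRCm38.p6, which gave chromosomes and promoters. The array files name no genome build.

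The 3 wild-type arrays were processed with neqc in limma 3.58.1 (R 4.3.3): normexp correction (negative controls inferred from the detection p-values), quantile normalisation and log2, with an offset of 16. The procedure was also run on simulated data with the same spread for most genes and a single probe for each. The real data have neither, so that run does not bear on their spread or on their probes. Quantile normalisation hides differences in total RNA. With 1 group there is no contrast, so values are described without a test. The bead count and the number of arrays limit precision. Members, gene lists and promoter features were chosen with earlier results of these data known. Genes named were taken from the 30 brightest, the 5 brightest of each list and list members with a range over 1. Others came from the 30 largest and 10 smallest SDs, the 6 markers, genes nearest the detection limit and the 5 whose probes differ most. Not every gene of these sets is named. Other list members named, dim or undetected ones among them, were chosen after their values were seen. Alternatives were median scaling, cyclic loess, all 6 arrays, an offset of 50, no background correction, the authors' values, the mean of probes, other detection limits and leaving out each array.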

Additional observations from a re-analysis of the deposited data

How the results depend on the processing

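All 6 markers stayed above background on every array counted, under each detection limit and with each array left out. A detection p under 0.01 left 7953 probes, 4820 named genes and 39 ligand genes, against 12877, 7298 and 73. With the mean of a gene's probes in place of the brightest, 65 of the 100 brightest genes were shared, against 98 to 100 under the other scalings and corrections. Leaving out 1 array gave 13775 to 14700 probes, 7676 to 8023 named genes, 216 to 224 transcription factors, 99 to 111 receptors, 80 to 86 ligands, 264 to 271 genes of the cellular programs and 53 to 57 marker genes, and shared 90 to 95 of the 100 brightest. Without 1 array the number of genes with a range over 1 was 1961 to 2267, the lowest without array 2, against 3291 with all 3, and the median SD was 0.37. Of the 100 genes with the largest SD, 30 to 57 were shared, the fewest without array 2, so which genes vary most rests on single embryos. A range over 2 arrays is smaller by construction. The other scalings and corrections gave 2578 to 3470 genes. Sfrp2 ranked 3 to 8, Pax6 437 to 469, Mab21l1 266 to 646, Xist 510 to 1518 and Sox2 1235 to 2891 across the settings that kept all 3 arrays. Hbb-bh1 ranked 490 without array 2 and 2343 without array 1. No paired analysis was possible because there is a single group. Dim genes are limited by background, and 3 embryos limit every SD.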
